A study of Mus musculus with 8 samples.

Results

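The 33 genes described here encode plasma proteins of blood clotting, clot removal and complement that the liver is known to supply. They were taken by symbol from a list of named genes, and all 33 were among the 22155 genes of the deposited count table. Their transcript levels were measured by RNA sequencing in 8 mouse liver libraries, in 4 groups of 2, to ask how loss of Yap1 in hepatocytes or loss of Ctgf alters the injured liver. Yap1 encodes a transcriptional coactivator held in check by the Hippo pathway. Ctgf encodes a secreted matrix-associated protein that YAP is known to induce.

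All groups shared the same injury. Mice of a C57BL/6 background, adult at 8 to 10 weeks by their labels and 8 weeks old by the design text, drank ethanol in a Lieber-DeCarli liquid diet, first at 1% for 2 days and then at 2% for 10 days. A dose of carbon tetrachloride (CCl4), a hepatotoxin, was injected into the peritoneum (1 µl for each g of mouse) 2 days ahead of liver collection. There was thus no uninjured liver among the groups. The Yap control group held Yap1 floxed homozygotes given AAV8-GFP. In the Yap1 knockout group AAV8-iCre had removed Yap1 from hepatocytes, so that other liver cells kept the gene. The Ctgf control group held Ctgf floxed homozygotes and the Ctgf knockout group Ctgf conditional knockouts, whose Cre driver the sources used here do not give. The labels do not say whether replicates are separate animals, and p-values measure only the spread between these libraries, which may be technical.

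Clotting factors circulate as inactive proteases and cofactors that activate one another in a cascade ending in thrombin and fibrin. Dedicated inhibitors restrain the cascade, and plasmin later dissolves the clot. Complement is a second protease cascade of plasma, which ends in a membrane pore. It can be started by antibody-bound C1, by lectins that recognise microbial sugars or by an alternative pathway. Hepatocytes make most of these proteins, and many of the genes are regulated with the acute phase response to injury.

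2 libraries need to be named before any result. Ctgf itself stood at 28.8 and 32.1 CPM (counts per 1000000 counts, scaled by the TMM method throughout) in the Ctgf controls, at 8.02 CPM in Ctgf knockout replicate 1 and at 49.2 CPM in the library labelled Ctgf knockout replicate 2, which goes against that label. Yap1 stood at 107 and 76.1 CPM in the Yap controls and at 31.0 and 32.5 CPM in the Yap1 knockouts. Yap control replicate 2 held 12815 CPM of 12 transcripts of the exocrine pancreas, against 3.13 to 7.51 CPM in the other libraries, where Clps and Try4 had no count. Total counts ran from 26904021 to 33488609 per library, and the 33 genes took 1.18% to 1.66% of them. Each gene had at least 208 counts in every library, and all 33 passed the low-count filter that left 13999 genes to test. The summed level of 9 hepatocyte markers was 103950 CPM in Yap control 2 and 96292 CPM in the library labelled Ctgf knockout 2, and 52680 to 73522 CPM elsewhere. Alb made up most of that sum, with 55345 CPM in Yap control 2, where Apob (4062 CPM) and Cps1 (1059 CPM) were instead at their lowest of all libraries. In bulk liver, fewer cells of a type and less RNA per cell cannot be told apart.

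Loss of Yap1 in hepatocytes was accompanied by unequal differences among the clotting and complement genes, none of which passed the test across all genes. F11, Cpb2, Pros1 and Masp1 stood higher in both Yap1 knockouts than in both Yap controls. Klkb1, Mbl2, C9, Serpind1, C2, Cfi and F13b stood lower in both. The widest differences were 5.22-fold lower for Klkb1 and 2.19-fold higher for Cpb2 (n = 2 libraries against 2).

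In edgeR's quasi-likelihood test, with p-values adjusted over 13999 genes after Benjamini and Hochberg, 0 of the 33 genes passed an adjusted p of 0.05 in the Yap1 comparison, where 0.0286% of all genes did. At an unadjusted p under 0.05, 4 were higher (6.64% of all genes) and 4 lower (7.14% of all genes). Groups did not overlap for 4 higher genes, where 23.6% of all genes tested did so, and for 7 lower genes, where 20.8% did. Together these 11 are 33.3% of the 33 genes, a share below that of all genes. DESeq2 called 5 of the 33, F11 and Cpb2 higher and Klkb1, Mbl2 and C9 lower, where it called 3.82% of all genes, and limma-voom called 0, where it called 0.0357%. In all, 15 of 33 log2 fold changes were above 0, with a median of -0.16, against -0.0046 over all genes tested.

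**Figure D1:**
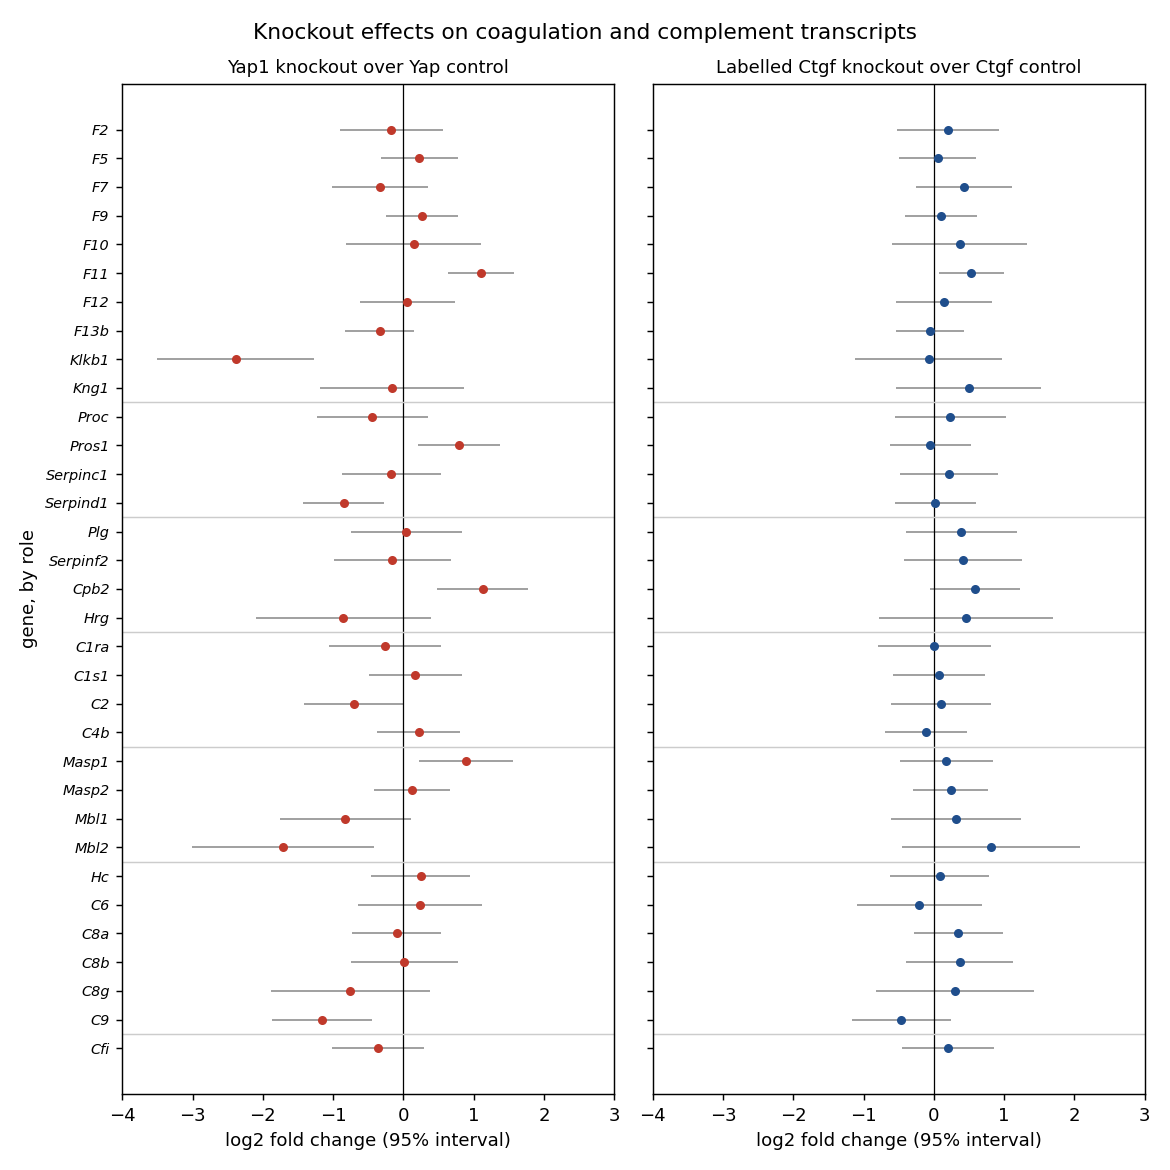
Log2 fold change of each of the 33 genes, grouped by role, for Yap1 knockout over Yap control (left) and the libraries labelled Ctgf knockout over Ctgf control (right); points are estimates of edgeR's fit and bars 95% intervals, n = 2 against 2. In the left panel Klkb1 (-2.38) and Mbl2 (-1.71) lie farthest below 0 and Cpb2 (1.13) and F11 (1.11) farthest above it, and none passed the adjusted p of 0.05.

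The promoters of F11, Klkb1, Cpb2 and C9 are shown because these genes had the 4 smallest p-values in the Yap1 comparison. Each line gives the 250 bases before the RefSeq start on GRCm38.p6, 5′ to 3′ on the gene's own strand, at chr8:45262032-45262281 (minus), chr8:45294836-45295085 (minus), chr14:75242037-75242286 (plus) and chr15:6445096-6445345 (plus). Capitals mark a match to TTGCNNAA, the core of a C/EBP motif, on either strand.
F11: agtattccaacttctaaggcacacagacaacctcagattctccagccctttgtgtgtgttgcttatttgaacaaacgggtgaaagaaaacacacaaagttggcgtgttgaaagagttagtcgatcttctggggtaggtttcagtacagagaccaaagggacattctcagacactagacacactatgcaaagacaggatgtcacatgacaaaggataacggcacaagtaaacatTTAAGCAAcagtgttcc
Klkb1: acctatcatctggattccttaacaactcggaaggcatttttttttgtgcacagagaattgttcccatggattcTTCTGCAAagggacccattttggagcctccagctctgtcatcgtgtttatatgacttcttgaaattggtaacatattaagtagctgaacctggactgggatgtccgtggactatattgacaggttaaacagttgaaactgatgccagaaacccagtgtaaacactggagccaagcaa
Cpb2: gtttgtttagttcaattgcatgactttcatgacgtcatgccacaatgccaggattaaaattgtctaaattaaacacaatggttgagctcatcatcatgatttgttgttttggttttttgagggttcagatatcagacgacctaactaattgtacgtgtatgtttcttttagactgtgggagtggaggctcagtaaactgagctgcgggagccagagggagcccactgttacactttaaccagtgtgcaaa
C9: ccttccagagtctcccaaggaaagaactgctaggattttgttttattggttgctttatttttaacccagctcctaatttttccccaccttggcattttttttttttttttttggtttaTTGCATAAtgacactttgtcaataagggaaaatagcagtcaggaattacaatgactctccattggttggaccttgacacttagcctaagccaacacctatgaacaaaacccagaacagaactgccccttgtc
F11, Klkb1 and C9 each hold a match and Cpb2 none. Among the 28 RefSeq promoter entries of 26 of the genes, 6 hold this motif, and 9.56% of 32851 entries of the same length do. GTTAAT, a part of the HNF1 motif, was in 5 of the 28 entries (6.43% of all entries). GGAATG, the core of the TEAD motif through which YAP is recruited, was in 4 (12.6% of all entries) and in none of the promoters printed here. The full palindromic HNF1 motif, which overlaps GTTAAT, and the HNF4 motif CAAAGTCCA were in 0 of the 28 (0.009% and 0.384% of all entries). Both strands were searched, and a match is a description of the letters only.

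Among the clotting proteases, F11 and Klkb1, which are neighbours in the genome, stood on opposite sides. F11 encodes factor XI, which activates factor IX, and lies at GRCm38 chr8:45241174-45262031 on the minus strand. Klkb1 encodes plasma prekallikrein, which activates factor XII and frees bradykinin from kininogen, and lies 4.7 kb away on the same strand at chr8:45266689-45294859. F11 stood at 37.2 and 40.2 CPM in the Yap controls, 85.8 and 80.9 CPM in the Yap1 knockouts, 48.6 and 36.5 CPM in Ctgf control livers, and 58.6 and 64.2 CPM in libraries labelled Ctgf knockout. Both Yap1 knockouts lay above both Yap controls, both libraries labelled Ctgf knockout lay above both Ctgf controls, and the replicates of the Yap line lay close together. The Yap1 fold change was 1.11 on the log2 scale (SE 0.201, 95% interval 0.64 to 1.57), with an adjusted p of 0.112 by edgeR. In the Ctgf comparison it was 0.53 (SE 0.199, edgeR adjusted p = 1).

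Klkb1 stood at 28.2 and 61.4 CPM in the Yap controls, 9.94 and 7.20 CPM in the Yap1 knockouts, 55.9 and 54.1 CPM in Ctgf control livers, and 31.7 and 72.8 CPM in libraries labelled Ctgf knockout. The Yap1 knockouts held less than every other library, while the controls of the Yap line lay apart from each other. With Yap1 lost, the fold change was -2.38 (SE 0.483, 95% interval -3.50 to -1.27, edgeR adjusted p = 0.129). For the Ctgf line it was -0.07 (SE 0.454, adjusted p = 1 by edgeR). In the annotation 43.2% of the exon length of Klkb1 is shared with Gm45753 on the same strand, so its count is uncertain.

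F13b, the carrier subunit of the fibrin-linking factor XIII, stood at 52.2 and 47.3 CPM in the Yap controls and 41.2 and 37.5 CPM in the Yap1 knockouts. The Ctgf line lay higher throughout, at 88.1 and 76.0 CPM in controls and 67.2 and 91.0 CPM in libraries labelled knockout. The Yap1 fold change of F13b was -0.34 on the log2 scale (SE 0.210, edgeR adjusted p = 0.477).

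F7, factor VII of the tissue factor pathway, stood at 34.9 and 63.8 CPM in the Yap controls and 43.4 and 34.7 CPM in the Yap1 knockouts. In the Ctgf line it stood at 31.7 and 27.9 CPM in controls and 36.8 and 43.6 CPM in libraries labelled knockout. Yap control 2 held the highest level, and the Yap groups overlapped. The log2 fold changes were -0.34 (SE 0.296) in the Yap1 comparison and 0.43 (SE 0.297) in the Ctgf comparison.

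Kng1, the kininogen that carries bradykinin, stood at 1097 and 2975 CPM in the Yap controls and 1719.7 and 1917 CPM in the Yap1 knockouts, so the controls enclosed the knockouts. It stood at 1388 and 1296 CPM in Ctgf control livers and 1530.0 and 2254 CPM in libraries labelled Ctgf knockout. Its log2 fold changes were -0.16 (SE 0.444) and 0.50 (SE 0.445).

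The other 5 clotting genes overlapped between controls and knockouts of both lines. F2, prothrombin, ranged from 865 to 1447 CPM over the 8 libraries, with a log2 fold change of -0.17 (SE 0.315) in the Yap1 comparison. F5, the cofactor of factor X in making thrombin, ranged from 420.0 to 622 CPM (0.23, SE 0.238). F9, the protease that activates factor X, ranged from 114 to 169 CPM (0.27, SE 0.222). F10, which cleaves prothrombin and lies 1.5 kb from F7, ranged from 126 to 314 CPM (0.15, SE 0.414). These 4 genes encode some of the factors that act in the steps from factor IX to thrombin, and none had an unadjusted p under 0.05. F12, the contact factor, ranged from 255 to 422 CPM (0.06, SE 0.293).

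Among the inhibitors of clotting, Serpind1 and Pros1 stood on opposite sides in the Yap1 knockouts. Serpind1, heparin cofactor II, which inhibits thrombin, stood at 141 and 152 CPM in the Yap controls and 85.9 and 76.9 CPM in the Yap1 knockouts. Ctgf line libraries stood at 238 and 207 CPM in controls and 176 and 275 CPM in libraries labelled knockout. The Yap1 knockouts were the lowest of all libraries, and the Yap controls lay below both Ctgf controls. For Yap1 loss the estimate was -0.85 on the log2 scale (SE 0.251, 95% interval -1.43 to -0.27, edgeR adjusted p = 0.235). In the Ctgf comparison it was 0.02 (SE 0.249, edgeR adjusted p = 1).

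Pros1, protein S, the cofactor of activated protein C, stood at 145 and 95.7 CPM in the Yap controls and 180.4 and 236 CPM in the Yap1 knockouts. In the Ctgf line it stood at 87.7 and 95.5 CPM in controls and 91.6 and 85.6 CPM in libraries labelled knockout. Both Yap1 knockouts exceeded all 6 other libraries. The Yap1 fold change was 0.80 on the log2 scale (SE 0.252, 95% interval 0.21 to 1.38, edgeR adjusted p = 0.26), and that of the Ctgf comparison was -0.05 (SE 0.251).

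Serpinc1, antithrombin, stood at 724 and 1094 CPM in the Yap controls and 835 and 779 CPM in the Yap1 knockouts, which lay between the controls. It stood at 912 and 849 CPM in Ctgf control livers and 800.1 and 1242 CPM in libraries labelled Ctgf knockout. Its Yap1 fold change was -0.17 on the log2 scale (SE 0.303). In the annotation 58.3% of its exon length overlaps Zbtb37 on the opposite strand. Proc, protein C, which inactivates factors V and VIII once thrombin has activated it, ranged from 143 to 306 CPM, with a log2 fold change of -0.44 (SE 0.342).

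In clot removal, Cpb2 stood apart in the Yap line while plasminogen and its inhibitor did not. Cpb2 encodes a carboxypeptidase, also called TAFI, that trims fibrin and so slows its digestion. It stood at 196 and 301 CPM in the Yap controls, 568 and 519 CPM in the Yap1 knockouts, 466 and 378 CPM in Ctgf control livers, and 556 and 709 CPM in libraries labelled Ctgf knockout. The Yap controls were the lowest of all libraries, both Yap1 knockouts lay above them, and both libraries labelled Ctgf knockout lay above the Ctgf controls. With Yap1 lost, the fold change was 1.13 on the log2 scale (SE 0.280, 95% interval 0.48 to 1.78, edgeR adjusted p = 0.187). For the Ctgf line it was 0.58 (SE 0.278, edgeR adjusted p = 1).

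Plg, plasminogen, stood at 1104 and 2045 CPM in the Yap controls and 1766 and 1471 CPM in the Yap1 knockouts. Ctgf line libraries stood at 1586 and 1479 CPM in controls and 1686 and 2327 CPM in libraries labelled knockout. The Yap1 fold change of Plg was 0.04 on the log2 scale (SE 0.342), and its control libraries lay on either side of both knockouts. Serpinf2, the plasmin inhibitor α2-antiplasmin, stood at 396 and 862 CPM in the Yap controls and 579.9 and 549 CPM in the Yap1 knockouts. It stood at 565 and 489 CPM in Ctgf control livers and 611 and 793 CPM in libraries labelled Ctgf knockout, and its Yap1 fold change was -0.16 (SE 0.361). Hrg, a histidine-rich glycoprotein that binds plasminogen and heparin, ranged from 343 to 1147 CPM, with a log2 fold change of -0.85 (SE 0.538).

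In the classical complement pathway, C2 was the gene with non-overlapping Yap groups. C2, the protease of the C3 convertase, stood at 20.4 and 23.0 CPM in the Yap controls, 15.9 and 10.8 CPM in the Yap1 knockouts, 18.9 and 16.6 CPM in Ctgf control livers, and 14.1 and 24.1 CPM in libraries labelled Ctgf knockout. Its Yap1 fold change was -0.70 on the log2 scale (SE 0.309, 95% interval -1.42 to 0.01), and 59.2% of its exon length is shared with Gm20547 on the same strand. C4b, the other part of that convertase, stood at 757 and 911 CPM in the Yap controls and 1034 and 908 CPM in the Yap1 knockouts, which overlapped. It stood at 994 and 990.3 CPM in Ctgf control livers and 766 and 1071 CPM in libraries labelled Ctgf knockout. The log2 fold change of C4b in the Yap1 comparison was 0.22 (SE 0.254). C1ra and C1s1, the proteases of the C1 complex, ranged from 51.7 to 99.98 CPM and from 159 to 271 CPM. Their Yap1 fold changes were -0.26 (SE 0.346) and 0.17 (SE 0.284), and close copies of both genes, C1rb and C1s2, make their counts uncertain.

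In the lectin pathway, a protease stood higher and a lectin lower in the Yap1 knockouts. Masp1, the protease that starts the pathway and also yields the MASP-3 form, stood at 74.6 and 40.5 CPM in the Yap controls, 101 and 112 CPM in the Yap1 knockouts, 79.0 and 66.5 CPM in Ctgf control livers, and 82.4 and 82.3 CPM in libraries labelled Ctgf knockout. Its Yap1 fold change was 0.89 on the log2 scale (SE 0.287, 95% interval 0.23 to 1.55, edgeR adjusted p = 0.263). The 2 Yap1 knockouts were the highest of the 8 libraries.

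Mbl2, mannose-binding lectin C, stood at 105 and 74.9 CPM in the Yap controls and 35.0 and 20.0 CPM in the Yap1 knockouts, which were the lowest of all. In the Ctgf line it stood at 57.6 and 57.9 CPM in controls and at 43.03 and 160.3 CPM in libraries labelled knockout, on either side of the controls. For Yap1 loss the estimate was -1.71 on the log2 scale (SE 0.560, 95% interval -3.00 to -0.41, edgeR adjusted p = 0.269). In the Ctgf comparison it was 0.82 (SE 0.547, edgeR adjusted p = 1), and -0.42 without the library labelled Ctgf knockout 2.

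Mbl1, mannose-binding lectin A, stood at 85.1 and 183 CPM in the Yap controls and 98.6 and 52.8 CPM in the Yap1 knockouts, and these groups overlapped. It stood at 103 and 95.1 CPM in Ctgf control livers and 112 and 133 CPM in libraries labelled Ctgf knockout. The Yap1 fold change of Mbl1 was -0.82 on the log2 scale (SE 0.402). Masp2, the protease that cleaves C4 and C2, ranged from 78.6 to 119 CPM (0.12, SE 0.233), and 56.3% of its exon length overlaps Tardbp on the opposite strand.

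Of the terminal components, which build the membrane pore, C9 alone had Yap groups that did not overlap. C9, the subunit that polymerises into the ring of the pore, stood at 476 and 508 CPM in the Yap controls, 286 and 154 CPM in the Yap1 knockouts, 420.0 and 431 CPM in Ctgf control livers, and 280.2 and 338 CPM in libraries labelled Ctgf knockout. All 4 control libraries lay above the 2 Yap1 knockouts and the 2 libraries labelled Ctgf knockout. The Yap1 fold change was -1.16 on the log2 scale (SE 0.307, 95% interval -1.87 to -0.45, edgeR adjusted p = 0.202). For the Ctgf line it was -0.46 (SE 0.304, edgeR adjusted p = 1).

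C6, which joins the complex after C5b, stood at 105 and 147 CPM in the Yap controls and 195 and 102 CPM in the Yap1 knockouts. Ctgf line libraries stood at 77.0 and 109.7 CPM in controls and 61.9 and 100.02 CPM in libraries labelled knockout. Replicates of C6 differed within all 4 groups, and its Yap1 fold change was 0.24 on the log2 scale (SE 0.382). C8a, the C8 chain that enters the membrane, stood at 848 and 713 CPM in the Yap controls and 753 and 709 CPM in the Yap1 knockouts. It stood at 756 and 684 CPM in Ctgf control livers and 711 and 1124 CPM in libraries labelled Ctgf knockout, and its Yap1 fold change was -0.09 (SE 0.274). C8b and C8g, the other chains of C8, had Yap1 fold changes of 0.02 (SE 0.331) and -0.75 (SE 0.490), with ranges of 100.1 to 249 CPM and 58.9 to 172 CPM. Hc, the mouse gene of complement C5, ranged from 649 to 1079 CPM (0.25, SE 0.304).

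Cfi, factor I, which inactivates C3b and C4b, stood at 609 and 613 CPM in the Yap controls and 473 and 476 CPM in the Yap1 knockouts. It stood at 601 and 559 CPM in Ctgf control livers and 486 and 843 CPM in libraries labelled Ctgf knockout. The replicates of both Yap groups lay close together, and the Yap1 fold change was -0.36 on the log2 scale (SE 0.283, 95% interval -1.02 to 0.29).

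**Figure D2:**
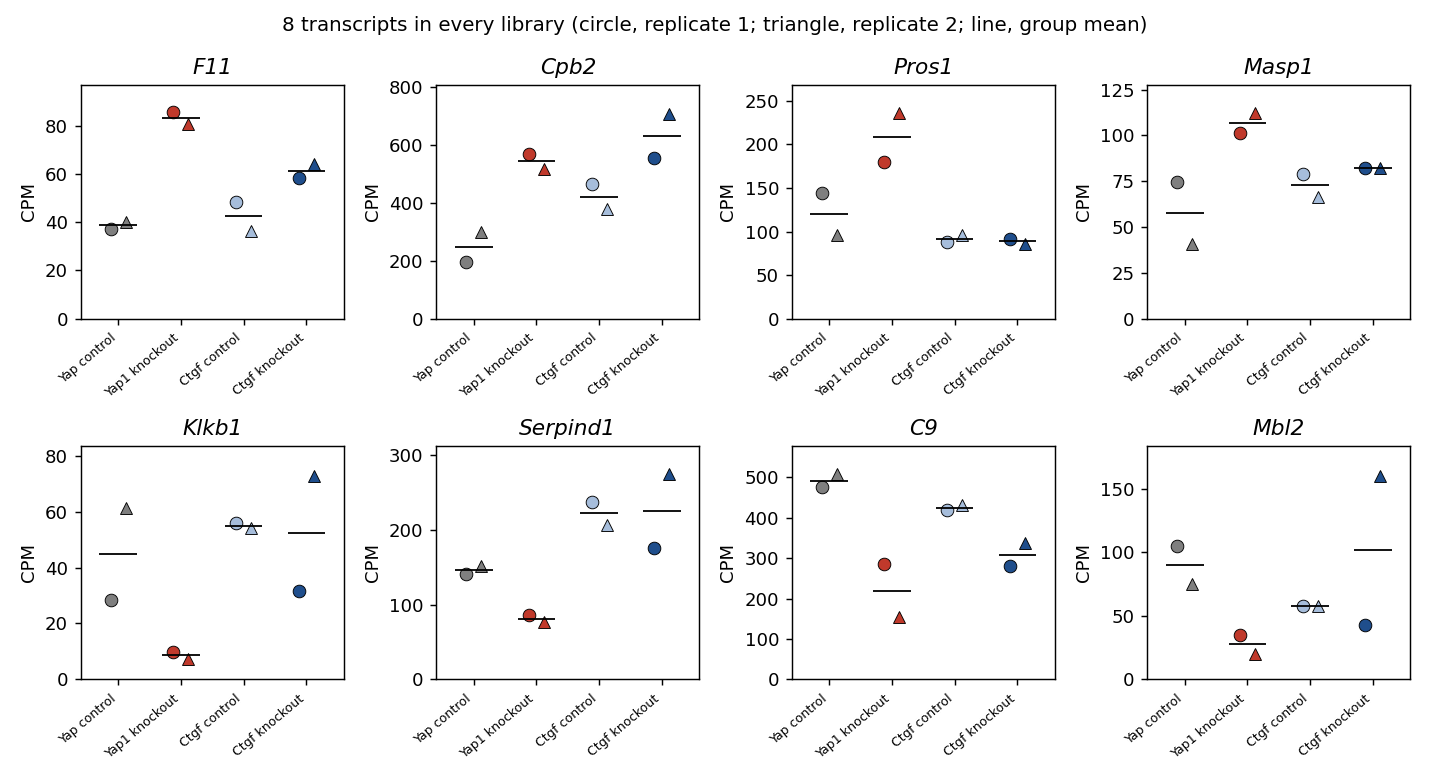
CPM of the 8 genes with an unadjusted p under 0.05 in the Yap1 comparison, in each library (circle, replicate 1; triangle, replicate 2; line, group mean; the axes start at 0 and differ between panels). F11, Cpb2, Pros1 and Masp1 stand higher in both Yap1 knockouts than in both Yap controls and Klkb1, Serpind1, C9 and Mbl2 lower, and the group named Ctgf knockout holds a library whose Ctgf level goes against its label.

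The Yap1 result depended on which control library was used. Against Yap control 1 alone, 24 of 33 genes were above 0, with a median log2 fold change of 0.19. Against Yap control 2 alone, 10 of 33 were above 0, with a median of -0.37. For 16 genes the sign turned between the controls, among them Kng1 (0.73 and -0.74) and Hrg (0.20 and -1.48), and for the other 17 it was the same, which for the 11 with separate groups follows from that separation. In fits that keep a single Yap control, that library is assumed to vary like the other groups. Without Yap control 1, edgeR called 10 genes, F11, Pros1 and Masp1 higher and F7, Klkb1, Serpind1, Hrg, Mbl1, C8g and C9 lower, where it called 25.8% of all genes. Without Yap control 2 it called 0 of 33 and 0.28% of all genes. Without both Yap control 2 and the library labelled Ctgf knockout 2 it called 5, F11 and Cpb2 higher and Klkb1, Serpind1 and Mbl2 lower, where it called 6.58% of all genes.

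**Figure D3:**
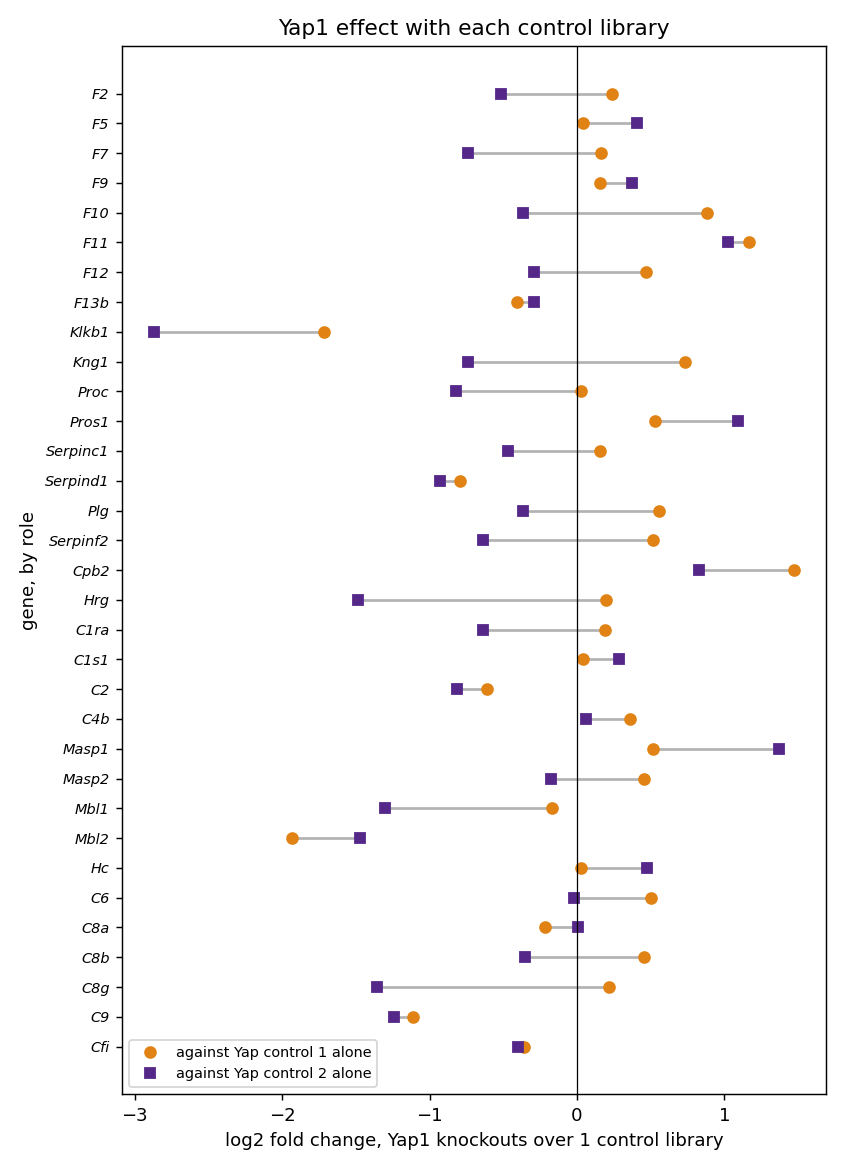
Log2 fold change of the mean of both Yap1 knockouts over Yap control 1 alone (circles) and over Yap control 2 alone (squares), for each of the 33 genes by role, from fits without the other control. Circles and squares fall on opposite sides of 0 for 16 genes, while F11 (1.16 and 1.02), Klkb1 (-1.72 and -2.87), Cpb2 (1.47 and 0.82) and C9 (-1.11 and -1.24) fall on one side, as they must where groups do not overlap.

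Some markers of other cells stood apart between the Yap groups, where 23.6% of all genes stood higher and 20.8% lower without overlap. Of 10 neutrophil markers 9 stood higher in both Yap1 knockouts, with summed levels of 1097 and 545 CPM against 164 and 269 CPM in the Yap controls and none at 0 in any library. Of 7 erythroid markers 6 did, with sums of 467 and 403 CPM against 123 and 229 CPM. Hepatocyte markers summed to 59267 and 73522 CPM in the Yap1 knockouts and 58797 and 103950 CPM in the Yap controls, where 1 of 9 was higher and 2 lower without overlap. Of 10 endothelial markers 3 were higher and 4 lower, of 10 macrophage markers 0 were higher and 3 lower, of 10 stellate cell markers 2 were higher and 1 lower, and of 8 cholangiocyte markers 2 were higher. Pancreas transcripts were at 3.24 CPM in Yap control 1 and 12815 CPM in Yap control 2, and their part in the results, like that of the other markers, was not tested.

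Between replicates, most of the 33 genes stood on one side in each of the 4 groups. Replicate 2 exceeded replicate 1 by a median of 0.60 on the log2 scale in the Yap controls, with 24 of 33 genes higher, and by 0.56 in the libraries labelled Ctgf knockout, with 31 of 33 higher. In the Yap1 knockouts the median was -0.21, with 26 of 33 lower, and in the Ctgf controls it was -0.11, with 28 of 33 lower. Without sign, the median difference in the Yap controls was 0.60 for the 33 genes and 0.57 for all genes with a count in both libraries. In the libraries labelled Ctgf knockout these values were 0.56 and 0.34. The widest gaps were those of Hrg in the Yap controls (3.14-fold) and of Mbl2 in the libraries labelled Ctgf knockout (3.73-fold). The library labelled Ctgf knockout 2 held the highest level of 15 genes, where it held that of 8.98% of all genes tested. Yap control 2 held the highest level of 10, where it held that of 23.8% of all genes tested. These libraries also have the highest hepatocyte marker sums, though not of every marker, and the part of hepatocyte content was not tested.

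**Figure D4:**
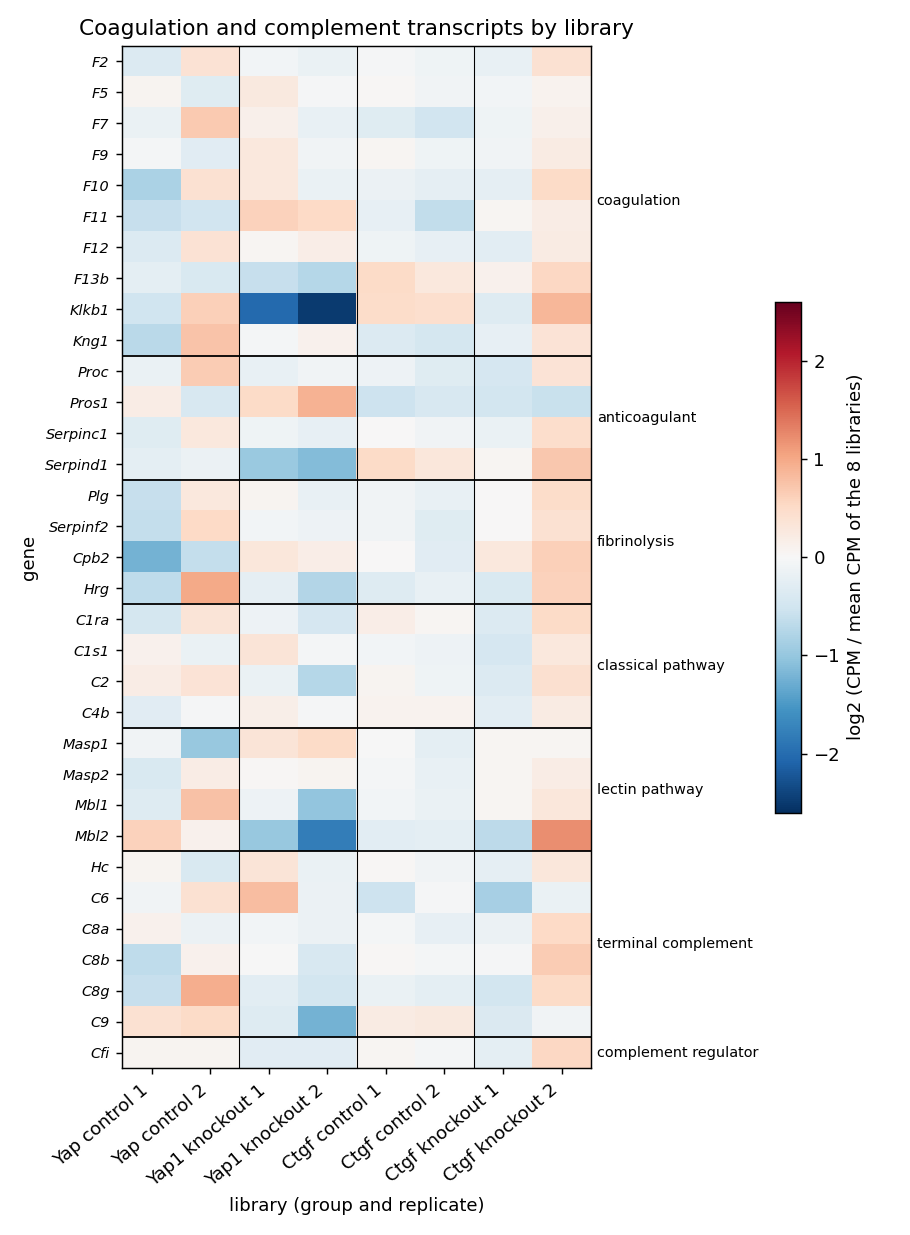
Level of each of the 33 genes (rows, by role) in each library (columns), as log2 of CPM over the gene's mean CPM of the 8 libraries; red is above and blue below that mean. Most rows are reddest in Yap control 2 or in the library labelled Ctgf knockout 2, which together hold the highest level of 25 genes, and Klkb1 is darkest blue in both Yap1 knockouts.

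In the Ctgf line most of the 33 genes stood slightly higher in the libraries labelled knockout, and the direction rested on replicate 2. By edgeR 0 of 33 passed (0% of all genes tested), as by DESeq2 (0.0286% of all genes) and limma-voom (0.00714% of all genes). At an unadjusted p under 0.05, 1 gene was higher, F11, where 0.657% of all genes were, and 0 were lower, where 1.32% were. Fold changes were above 0 for 27 of 33, with a median of 0.20 on the log2 scale, against 0.0064 over all genes. Without the library labelled Ctgf knockout 2, 9 of 33 were above 0 and the median was -0.12. Without Ctgf knockout 1, 31 were above 0 and the median was 0.45. Groups did not overlap for 10 genes. The 9 that were higher (15.5% of all genes tested were) were F7, F11, Kng1, Plg, Serpinf2, Cpb2, Masp1, Masp2 and Mbl1, and the 1 lower was C9 (16.8% of all genes were). With Ctgf knockout 1 alone these counts were 9 higher and 18 lower, where 40.2% of all genes were higher and 39.3% lower. With the library labelled Ctgf knockout 2 alone they were 30 higher and 2 lower, where 41.3% of all genes were higher and 40.3% lower. With Ctgf knockout 1 alone, the library in which Ctgf was low, F11 was at 0.46, Cpb2 at 0.40 and C9 at -0.60 on the log2 scale (edgeR adjusted p = 1 each). Macrophage markers stood lower without overlap for 8 of 10, with sums of 981 and 1355 CPM among controls and of 470.1 and 974 CPM among libraries labelled knockout, and neutrophil markers for 6 of 10, with 179 and 211 CPM and 77.2 and 160 CPM. Their part was not tested.

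Set side by side, F11, Cpb2 and Masp1 stood above the controls in both lines and C9 below. In the Ctgf line this includes the library labelled Ctgf knockout 2, whose Ctgf level goes against its label. There Masp1 was only narrowly apart, at 82.4 and 82.3 CPM against 79.0 and 66.5 CPM in controls. Of all genes tested 2.61% stood above and 2.49% below in both. Ctgf itself stood higher in both Yap1 knockouts than in both Yap controls.

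Whether the Yap1 and Ctgf effects differ was tested in the same fit, which uses the same libraries as the comparisons above. By edgeR 0 of 33 passed (0% of all genes tested), limma-voom called 0 and DESeq2 called Klkb1, as lower, where it called 1.06% of all genes. At an unadjusted p under 0.05, 1 gene was higher (4.68% of all genes) and 3 were lower (4.19% of all genes). Klkb1 differed by -2.31 on the log2 scale (SE 0.655, edgeR adjusted p = 0.456) and Mbl2 by -2.52 (SE 0.782, adjusted p = 0.502). Serpind1 differed by -0.87 (SE 0.353) and Pros1 by 0.84 (SE 0.355), with edgeR adjusted p = 0.549 for each. Without Yap control 1, Pros1 and Masp1 passed as higher and F7 and Klkb1 as lower, where 14.5% of all genes passed. The members' median difference was -0.35, and 0.30 without Yap control 2 and the library labelled Ctgf knockout 2, where 0 passed (1% of all genes).

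The control groups differ in floxed line and in virus, which the labels give for the Yap controls alone, and these cannot be told apart. Yap control livers held less F13b than Ctgf control livers (log2 fold change -0.72, SE 0.210, edgeR adjusted p = 0.109), less Cpb2 (-0.76, SE 0.278, 0.164) and less Serpind1 (-0.60, SE 0.250, 0.208), and more F7 (0.73, SE 0.298, 0.201), where the last value in each bracket is edgeR's adjusted p. By edgeR 0 of 33 passed, where 2.38% of all genes tested did, with 178 higher and 155 lower. Limma-voom called 0 as well (2.39% of all genes), and DESeq2 called F13b, as lower (10.9% of all genes). At an unadjusted p under 0.05, 1 gene was higher (12.2% of all genes) and 3 were lower (10.4%). Groups did not overlap for 6 genes higher in the Yap controls (26.1% of all genes tested) and for 4 lower (27%). Without Yap control 1, F7 and Kng1 passed as higher and Masp1 as lower (25.6% of all genes), and without Yap control 2, Cpb2 passed as lower (7.07% of all genes). Without Yap control 2 and the library labelled Ctgf knockout 2, Pros1 passed as higher and F13b, Klkb1, Serpind1, Cpb2, C1ra and C8b as lower (28.4% of all genes). Of 10 endothelial markers 8 stood higher in both Yap controls, at sums of 795 and 585 CPM against 378 and 461 CPM, as did 6 of 10 stellate cell markers, at 971 and 719.9 CPM against 315 and 348 CPM, and their part was not tested. The Yap controls enter both this and the Yap1 comparison, so values of a gene in both are not independent.

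Per kilobase of annotated exon, levels of different genes can be set side by side only roughly. The 33 genes spanned from 6.46 CPM per kb for C2 to 610.4 CPM per kb for Plg, as means of the 8 libraries. C2 and Klkb1 share 59.2% and 43.2% of their exon length with another gene on the same strand. Their low values and ranks are therefore uncertain. Serpinc1 (58.3%) and Masp2 (56.3%) overlap genes on the opposite strand, so their values are uncertain too. Among clotting genes Kng1 (569) and F2 (556) were highest and Klkb1 (7.65) lowest, in CPM per kb. Among the inhibitors Serpinc1 was highest at 179 CPM per kb and Pros1 lowest at 38.5 CPM per kb. In the lectin pathway Mbl1 (69.0 CPM per kb) and Mbl2 (63.6 CPM per kb) had overlapping ranges, as had Masp2 (32.1 CPM per kb) with both, and Masp1 (9.35 CPM per kb) lay below all of them. C8a (217 CPM per kb) was the most abundant terminal component and C6 (32.3 CPM per kb) the least. C8a, C8b and C8g, whose products join in a single complex, were at 217, 70.5 and 66.2 CPM per kb.

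**Figure D5:**
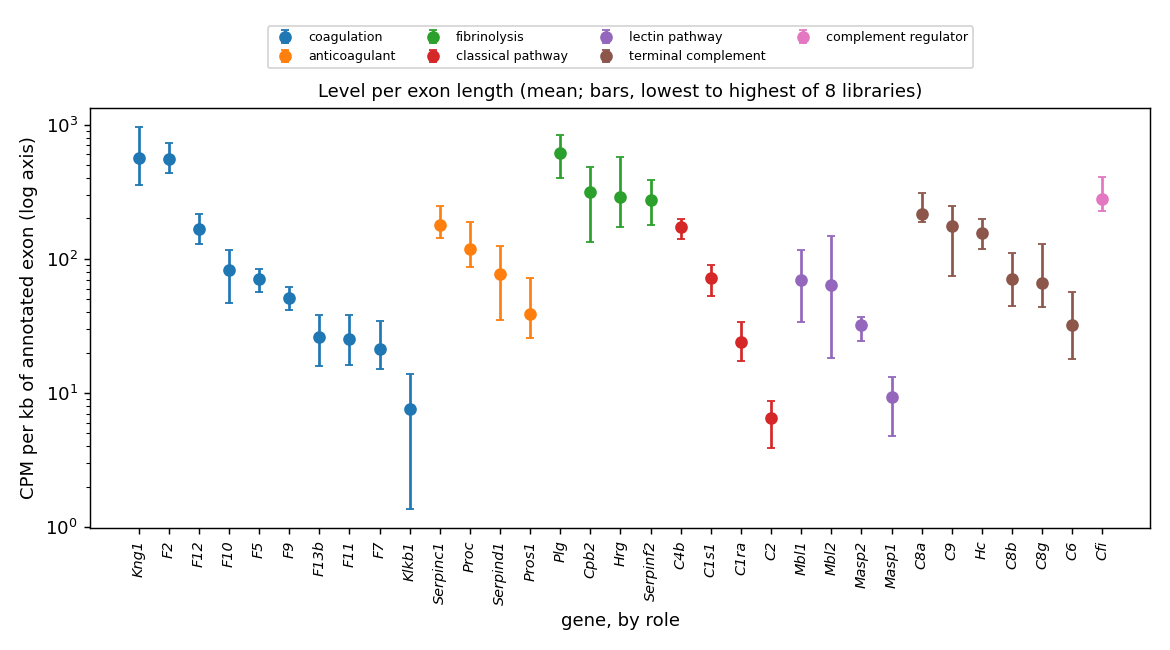
Level of each of the 33 genes in CPM per kb of annotated exon, on a log axis, ordered within each role; points are means of the 8 libraries and bars run from the lowest to the highest library. Plg (610.4), Kng1 (569) and F2 (556) lie highest, and Klkb1 has the longest bar, from 1.37 to 13.9 CPM per kb.

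Other genes of the same pathways were read from lists of 25 clotting and fibrinolysis genes, all tested, and 28 complement genes, of which 25 were tested. In the Yap1 comparison 0 of either list passed (0.0286% of all genes did), and 7 higher and 1 lower of the first and 0 higher and 3 lower of the second had an unadjusted p under 0.05, where 6.64% of all genes were higher and 7.14% lower. The median log2 fold change was 0.51 for the clotting list and -0.15 for the complement list. F3, tissue factor, the cofactor of factor VII, stood at 4.20 and 4.07 CPM in the Yap controls and 9.87 and 8.93 CPM in the Yap1 knockouts (log2 fold change 1.18, SE 0.248, edgeR adjusted p = 0.139). Procr, the endothelial receptor of protein C, stood at 10.2 and 7.16 CPM against 26.0 and 14.9 CPM (1.23, SE 0.314, edgeR adjusted p = 0.192).

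Cd59a, which blocks the terminal pore on host cells, stood at 39.4 and 57.3 CPM in the Yap controls and 28.6 and 21.6 CPM in the Yap1 knockouts (-0.94, SE 0.251, edgeR adjusted p = 0.203). Colec11, a collectin of the lectin pathway, stood at 10.4 and 18.6 CPM against 5.20 and 9.27 CPM (-1.001, SE 0.365, edgeR adjusted p = 0.309). Cfd, factor D of the alternative pathway, had 1 and 58 counts in the Yap controls and 1 and 2 in the Yap1 knockouts, so its value rests on Yap control 2 (edgeR adjusted p = 0.345).

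In the Ctgf comparison 0 genes of either list passed (0% of all genes), and 2 of the clotting list, both higher, and 1 of the complement list, lower, had an unadjusted p under 0.05, where 0.657% of all genes were higher and 1.32% lower. The fibrinogen chains Fgg and Fgb stood at 6498 and 5417 CPM and at 8493 and 6714 CPM in Ctgf control livers. In those labelled Ctgf knockout they stood at 11133 and 9868 CPM and at 14553 and 12001 CPM, above both controls in both libraries (0.82, SE 0.353, and 0.80, SE 0.351). Serpina10, the protein Z-dependent inhibitor of factor Xa, stood at 360.1 and 249.8 CPM against 518 and 577 CPM (0.84, SE 0.339). The receptors of the complement fragments C5a and C3a, C5ar1 and C3ar1, had log2 fold changes of -0.86 (SE 0.370) and -0.69 (SE 0.327), at 22.5 and 26.9 CPM against 8.44 and 18.8 CPM and at 15.3 and 20.98 CPM against 7.56 and 14.9 CPM. Crp, a pentraxin that can bind C1q, stood at 308 and 239.6 CPM against 257 and 769 CPM (0.91, SE 0.535), a value that was -0.091 without the library labelled Ctgf knockout 2. The edgeR adjusted p was 1 for all 6 of these genes.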

How the data were processed

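The authors deposited whole-number read counts per gene symbol for 8 libraries. The submitters' processing notes name HTSeq 0.6.1, STAR 2.6.0a and bcl2fastq 2.20.0.422, with builds mm10 and GRCm38. Sources used here give neither strand setting nor annotation, so counts of overlapping genes are uncertain. The labels name TruSeq and KAPA kits without saying which library had which. The number of count columns not used was 0. Counts were tested with edgeR 4.0.16 in R 4.3.3 (quasi-likelihood F test, TMM scaling, edgeR's low-count filter, 4 groups in 1 fit with 4 residual degrees of freedom), and adjusted by Benjamini-Hochberg over 13999 genes. The script was tested on simulated data. A standard error is the absolute fold change over the root of F. Positions and exon lengths came from GENCODE M21, promoters from RefSeq. DESeq2 1.42.0, limma-voom (limma 3.58.1), other scalings, filters and left-out libraries were the alternatives.

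The genes and lists were chosen with earlier results of these data known. Library values are given for genes past the threshold, the 4 smallest p-values per comparison and the highest and lowest level per kb of each role. Other pathway genes are named by the 3 smallest p-values per list and knockout comparison, of which 1 is not reported here. The promoters, and the other genes given per library, were chosen after values were seen.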

Additional observations from a re-analysis of the deposited data

How the results depend on the processing

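Across the alternatives run, 0 of the 33 genes passed in the Ctgf comparison. In the Yap1 comparison, 2 passed as higher and 3 as lower with DESeq2, where it called 3.82% of all genes. With 1 library left out at a time, the median log2 fold change of the 33 genes ran from -0.37 to 0.19. It was 0.19 without both Yap control 2 and the library labelled Ctgf knockout 2. In the Ctgf comparison the median ran from -0.12 to 0.45, and was -0.12 without both libraries. For the difference between the effects 1 gene passed as lower with DESeq2, where it called 1.06% of all genes. The members' median difference ran from -0.69 to -0.01 with 1 library left out, and was 0.30 without both libraries. Between the control groups 1 gene passed as lower with DESeq2, 0 to 2 as higher and 0 to 1 as lower with 1 library left out, and 1 as higher and 6 as lower without both. Its median ran from -0.22 to 0.28, and was -0.22 without both. Upper quartile factors moved the median of all genes in that comparison from 0.04 to 0.18, with 244 genes higher and 114 lower against 178 and 155. At an unadjusted p in the Yap1 comparison, 2 to 7 members were higher and 2 to 10 lower with 1 library left out. The 10 came without Yap control 1, where 21.1% of all genes were lower, and the 7 without Yap control 2, where 7.76% of all genes were higher. Without both libraries 12 were higher and 7 lower, where 14.8% and 12.7% of all genes were. With 1 library left out, Cfd in the Yap1 comparison ran from -5.47 to 0.79, and in the Ctgf comparison Mbl2 from -0.42 to 1.49 and Crp from -0.091 to 1.505. Signs turned without Yap control 2 for Cfd and without the library labelled Ctgf knockout 2 for the others, and without both libraries the values were 0.79, -0.42 and -0.091. The cause was not tested.

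With the replicate number as a block, 0 of the 33 genes passed in each comparison, and of all genes 2 were higher and 1 lower in the Yap1 comparison, against 3 and 1. Same-numbered libraries deviated together weakly within a line, with correlations of 0.186 in the Yap line and 0.113 in the Ctgf line. Between groups of different lines the correlations ran from -0.157 to 0.055. The block fits a replicate shift shared by both lines, so it cannot decide whether libraries are paired within a line. The main fit did not take the replicate numbers as pairing the libraries.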
